A study of Mus musculus with 21 samples.

Results

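The transcriptional response of mouse bone marrow-derived macrophages to the cytokine IL-33 was compared between wild-type cells and cells labelled as lacking ST2, the IL-33 receptor chain. For each gene, the quantity examined was the log2 change with IL-33 in the ST2-deficient cells minus the log2 change in wild-type cells, here called the interaction. A negative interaction means that a gene gained less, or lost more, in the ST2-deficient cells than in the wild type, and a positive one the reverse. All genes that passed an expression filter entered the comparison, 14473 of the 47069 genes in the table, and 12 of the 21 libraries hold the cells compared. The other 9 libraries (IL-4-treated wild-type cells and cells carrying Cx3cr1-Cre and floxed Gata3) served only to estimate the spread between libraries.

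Macrophages were grown from marrow of C57BL/6 mice for 5 days in M-CSF-conditioned medium, which every group received, and were then kept for 36 h with IL-33 or with no stimulus. The 4 groups were wild-type (WT) cells without cytokine, WT cells with IL-33, cells labelled ST2-/- on the C57BL/6 strain without cytokine, and the same cells with IL-33, with 3 libraries in each. The IL-33 dose, the age and sex of the mice, the exons removed by the ST2 allele and whether libraries came from separate animals are not given in the sources used here, so p-values reflect library-to-library spread that may be technical only. The ST2-/- cells are called ST2KO-labelled below, because the gene counts described next did not check the deletion. 

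IL-33 is an alarmin of the IL-1 family that is released by damaged barrier cells. It binds ST2, encoded by Il1rl1, which pairs with the shared accessory chain encoded by Il1rap and recruits MyD88 and IRAK kinases, and these in turn activate NF-kB and the MAP kinases. In macrophages the cytokine is known for amplifying alternative activation, the programme of arginase, mannose receptor and type 2 chemokines that is otherwise induced by IL-4 and IL-13.

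Il1rl1 (chromosome 1, 40429570 to 40465415, GRCm38) had 534, 667 and 601 counts in the unstimulated WT libraries and 598, 686 and 518 with IL-33. In the ST2KO-labelled libraries it had 753, 989 and 583 counts without cytokine and 615, 810 and 523 with IL-33. The 4 groups overlapped, so the gene's total was not reduced in libraries with the ST2-/- label. Counts over a whole gene cannot show the loss of 1 exon, and the label was taken as given. Il1rap, the accessory chain, stood at 11.6 ± 0.708, 11.1 ± 0.915, 12 ± 0.384 and 12.4 ± 0.766 CPM (counts-per-million, scaled to library size; mean ± SD, n = 3) in the same order of groups. The ligand gene, Il33, held 4 counts over the 12 libraries and was not tested.

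The 12 libraries held 35995216 to 47365334 counted reads each. Along the first principal component, with 44.9% of the variance, the WT libraries with IL-33 lay at 56.9 to 63.1 and the other 9 libraries between -24.8 and -13.01. The 6 unstimulated libraries lay between -23.6 and -17.04, and replicates 1, 2 and 3 of ST2KO-labelled cells with IL-33 at -20.9, -13.01 and -24.8. Replicate 2 stood apart from replicates 1 and 3 in a set of inflammatory genes, and results that rest on it are given with and without it. Mitochondrially encoded counts made up 0.113 to 0.198% of WT libraries and 0.248 to 0.317% of ST2KO-labelled ones, and their part in the results was not tested. Of 10 macrophage markers, all were measured, and their summed level was 28171 to 31344 CPM in the 9 libraries other than WT with IL-33, where it was 37458 to 41425 CPM.

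The interaction was called for 3284 genes, 22.7% of those tested, at an adjusted p under 0.05 (edgeR's quasi-likelihood test with Benjamini-Hochberg adjustment over all 14473 genes). It was positive for 1539 genes (10.6%) and negative for 1745 (12.1%). At a size of at least 2-fold, 277 genes (1.91%) were called with a positive and 478 (3.3%) with a negative interaction. In WT cells IL-33 itself changed 5122 genes (35.4%), 2676 upward (18.5%) and 2446 downward (16.9%). In ST2KO-labelled cells the same test called 0 genes, with a lowest adjusted p of 0.671 and 507 genes (3.5%) at an unadjusted p under 0.05. DESeq2 and limma-voom also called 0 genes there, with lowest adjusted p-values of 0.0697 and 0.78. Same-numbered libraries of this genotype deviated together, and with the replicate number as a block within genotype edgeR called 4 genes, 1 upward (Rps12-ps3) and 3 downward (among them Rps29 and Cebpb), with a lowest adjusted p of 0.0125. The WT response enters the interaction with its sign turned. A WT response with no counterpart in the ST2KO-labelled cells therefore gives an interaction of opposite sign, called or not. The WT and interaction counts are thus not separate evidence.

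The 15 genes with the most negative interactions include enzymes, chemokines, a protease and signalling proteins, and each was higher in the 3 WT libraries with IL-33 than in any of the other 9. They were picked for their interaction in these same libraries, so this order of groups is not separate evidence. Arg1 (chromosome 10, 24915221 to 24927484), the arginase that marks alternatively activated mouse macrophages, stood at 0.273, 0.519 and 0.351 CPM in unstimulated WT cells, 319.9, 362 and 439 with IL-33, 0.370, 0.887 and 0.274 in unstimulated ST2KO-labelled cells and 0.713, 1.16 and 0.352 with IL-33. Only the 3 WT libraries with IL-33 were high, and the other 9 overlapped. The Arg1 interaction was -9.40 ± 0.76 (log2 ± SE, adjusted p = 5.80e-09), and the change in ST2KO-labelled cells was 0.52 with a 95% interval of -0.49 to 1.52.

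Serpinb2 (chromosome 1, 107511423 to 107535478), which encodes an inhibitor of plasminogen activators, held 0, 0 and 1 counts in unstimulated WT cells and 847, 900 and 874 with IL-33. The ST2KO-labelled libraries held 2, 5 and 2 counts without and 5, 2 and 8 with the cytokine. Against the single count in unstimulated WT cells the WT ratio was 2644 (95% interval for counting error 474 to 104469), while the ratio in ST2KO-labelled cells was 1.80 (0.737 to 4.66). The groups with IL-33 did not overlap, and the interaction was called (adjusted p = 1.91e-05).

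Ccl8 (chromosome 11, 82115185 to 82116799), a chemokine for monocytes, stood at 0.137, 0.0778 and 0.1002 CPM in unstimulated WT cells, 42.0, 68.2 and 73.8 with IL-33, 0.185, 0.103 and 0.0249 in unstimulated ST2KO-labelled cells and 0.0476, 0.277 and 0.0271 with IL-33. Slc13a3 (chromosome 2, 165405028 to 165473230), a sodium-coupled importer of dicarboxylates, stood at 0.765, 0.571 and 0.351 CPM in unstimulated WT cells, 48.9, 83.0 and 81.9 with IL-33, 0.833, 0.474 and 0.722 in unstimulated ST2KO-labelled cells and 0.880, 0.416 and 0.515 with IL-33. Both genes were high in the 3 WT libraries with IL-33 alone. Their interactions were -8.96 ± 1.30 (adjusted p = 2.13e-05) and -7.14 ± 0.63 (adjusted p = 2.09e-08). For Ccl8 the interaction was -10.57 without replicate 2 of ST2KO-labelled cells with IL-33.

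Mgl2, a C-type lectin of alternatively activated macrophages, had the lowest adjusted p of any gene in the interaction (1.64e-13) and was measured well above the floor in all 12 libraries. It stood at 8.91, 10.6 and 8.52 CPM in unstimulated WT cells, 319.7, 271 and 246 with IL-33, 10.1, 11.4 and 12.04 in unstimulated ST2KO-labelled cells and 11.7, 13.6 and 9.70 with IL-33. The interaction of -4.84 ± 0.19 had a 95% interval of -5.23 to -4.45. Mmp14, a membrane-bound matrix metalloproteinase, had means of 0.353 ± 0.231 CPM without and 60.8 ± 26.4 with IL-33 in WT cells, against 0.629 ± 0.291 and 0.905 ± 1.07 in ST2KO-labelled cells (interaction -6.80 ± 0.93). Its ST2KO-labelled values with IL-33 were 0.452, 2.13 and 0.135 CPM, the highest being replicate 2, without which the interaction was -8.43.

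The remaining genes among the 15 most negative interactions followed the same order of groups. Rasgrp1, an activator of Ras, had means of 0.158 ± 0.0843 CPM without and 13.9 ± 1.08 with IL-33 in WT cells, against 0.129 ± 0.0485 and 0.127 ± 0.0926 in ST2KO-labelled cells (interaction -6.43 ± 0.76, or -7.19 without replicate 2 of ST2KO-labelled cells with IL-33). Cish, a feedback inhibitor of STAT5 signalling, had means of 0.139 ± 0.0154 CPM without and 6.37 ± 0.687 with IL-33 in WT cells, against 0.375 ± 0.171 and 0.374 ± 0.171 in ST2KO-labelled cells. The monocyte chemokine Ccl12 had an interaction of -5.40 ± 0.80, which was -3.54 without replicate 1 of the unstimulated ST2KO-labelled cells, and Ccl7 one of -5.30 ± 0.44. H2-M2, a non-classical MHC class I gene, had means of 0.276 ± 0.113 CPM without and 13.5 ± 4.45 with IL-33 in WT cells, against 0.362 ± 0.219 and 0.485 ± 0.174 in ST2KO-labelled cells. For Spint1, a membrane-bound inhibitor of serine proteases, the means were 0.266 ± 0.132 CPM without and 7.97 ± 0.952 with IL-33 in WT cells, against 0.488 ± 0.232 and 0.572 ± 0.144 in ST2KO-labelled cells. Irg1, the older symbol of Acod1, which makes itaconate, had means of 3.30 ± 0.976 CPM without and 73.1 ± 5.33 with IL-33 in WT cells, against 3.66 ± 1.72 and 3.16 ± 0.944 in ST2KO-labelled cells, with an interaction of -4.68 ± 0.42. Saa3 and Hp, which belong to the acute phase response, complete the 15 and are described with replicate 2 below.

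**Figure D1:**
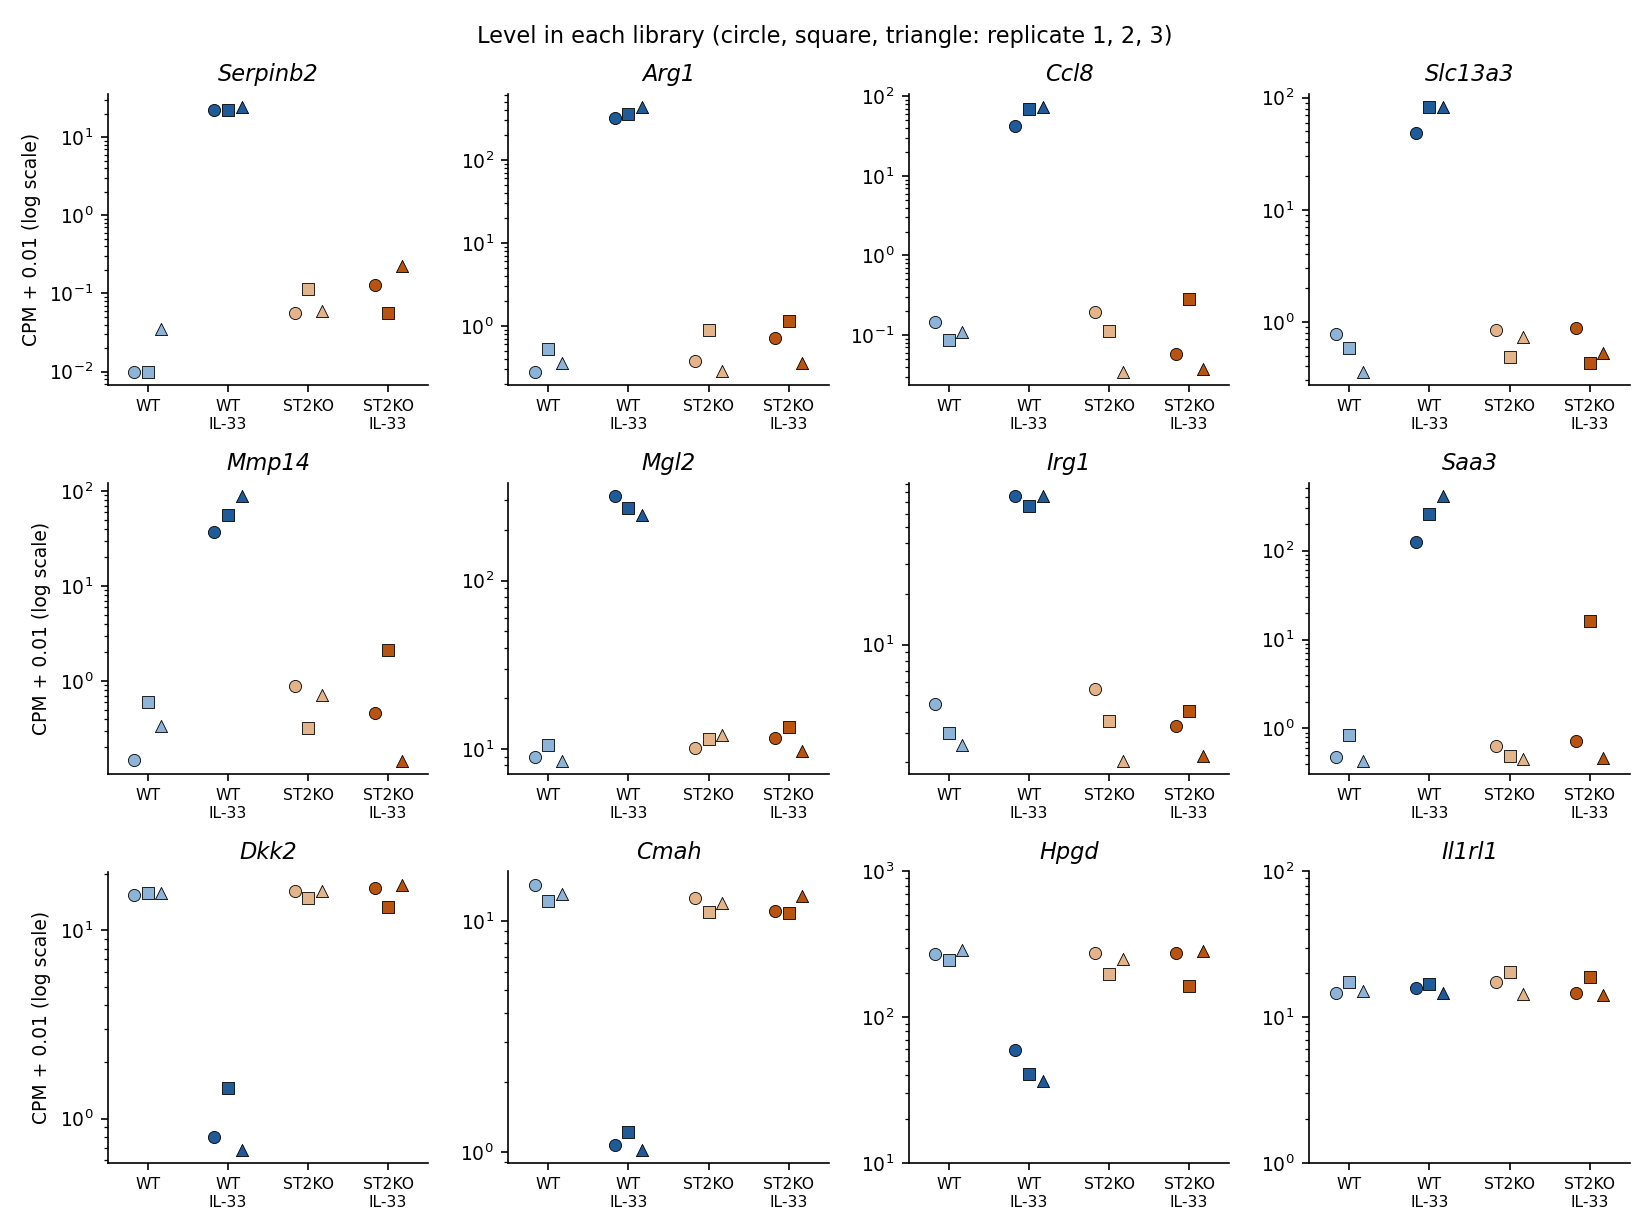
Level of 12 genes in each of the 12 libraries (CPM + 0.01, log axis); x axis, the 4 groups; circles, squares and triangles are replicates 1, 2 and 3. The first 8 genes are high in the 3 WT libraries with IL-33, Saa3 has 1 ST2KO-labelled library at 16.2 CPM, Dkk2, Cmah and Hpgd are low only in WT cells with IL-33, and Il1rl1 does not separate the groups.

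Promoter sequences of 4 genes that answer in WT cells are shown because they carry letters bound by the factors that IL-33 receptor signalling and its secondary cytokines are known to use. Each is the 250 bases before the RefSeq start site (GRCm38.p6), written 5′ to 3′ on the gene's strand. Capitals mark a match, on either strand, to AP-1 (TGANTCA) and C/EBP (TTGCNNAA) in Serpinb2, to C/EBP in Saa3, to the kappaB consensus in Cxcl2 and to STAT (TTCNNNGAA) in Socs3.
Serpinb2: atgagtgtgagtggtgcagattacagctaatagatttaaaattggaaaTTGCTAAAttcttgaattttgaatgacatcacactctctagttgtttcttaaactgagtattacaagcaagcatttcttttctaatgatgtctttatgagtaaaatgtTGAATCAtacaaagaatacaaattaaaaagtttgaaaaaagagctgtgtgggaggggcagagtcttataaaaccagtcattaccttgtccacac
Saa3: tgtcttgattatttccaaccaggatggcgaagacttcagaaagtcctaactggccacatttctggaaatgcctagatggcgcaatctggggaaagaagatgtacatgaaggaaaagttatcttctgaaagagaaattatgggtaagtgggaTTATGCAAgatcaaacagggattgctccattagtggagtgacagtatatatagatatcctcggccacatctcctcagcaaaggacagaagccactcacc
Cxcl2: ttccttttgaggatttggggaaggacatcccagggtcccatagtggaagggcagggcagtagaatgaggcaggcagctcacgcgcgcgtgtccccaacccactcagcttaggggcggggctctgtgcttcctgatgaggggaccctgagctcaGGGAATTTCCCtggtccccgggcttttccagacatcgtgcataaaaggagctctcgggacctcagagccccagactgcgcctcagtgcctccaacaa
Socs3: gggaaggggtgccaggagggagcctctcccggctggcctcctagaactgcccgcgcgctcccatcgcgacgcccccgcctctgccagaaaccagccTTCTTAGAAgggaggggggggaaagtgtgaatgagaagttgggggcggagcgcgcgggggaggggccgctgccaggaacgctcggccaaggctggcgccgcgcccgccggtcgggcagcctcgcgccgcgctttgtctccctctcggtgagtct
The windows lie at chr1:107511173-107511422 on the plus strand (Serpinb2), chr7:46715677-46715926 on the minus strand (Saa3), chr5:90903649-90903898 on the plus strand (Cxcl2) and chr11:117969367-117969616 on the minus strand (Socs3). Each is the first RefSeq window listed for its gene, and other starts were not searched. By GENCODE positions the Socs3 window lies inside the gene (117966079 to 117970047). The Saa3 window overlaps the 5′ end of its gene (46711998 to 46715700). The AP-1 match of Serpinb2 covers bases 94 to 88 before the start and its C/EBP match bases 202 to 195. The C/EBP match of Saa3 covers bases 99 to 92, the STAT match of Socs3 bases 154 to 146, and 2 overlapping kappaB matches of Cxcl2 together bases 97 to 87.

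Windows were found for 10317 of the 14473 genes, and 11 motifs were searched on both strands. AP-1 letters were present in 4.43% of all windows, in 10.5% of the 373 genes with a called negative interaction of at least 2-fold, in 14.6% of the 158 with one of at least 4-fold, and in 4.62% of the 195 with a positive one of at least 2-fold. For C/EBP the shares were 7.62, 12.1, 16.5 and 7.69%, for kappaB 4.38, 7.77, 7.59 and 4.1%, and for STAT 5.98, 8.58, 6.96 and 4.62%. Median GC content was 59.6, 56, 53.6 and 58.8% in the same sets, so the windows with more AP-1 and C/EBP letters were also poorer in GC. Its part in these shares was not tested. AP-1 letters were present upstream of Il1a, Mmp13, Il1rn, Ppbp and F3, and kappaB letters upstream of Cxcl1, Cxcl3, Pdcd1lg2 and Ier3. The other motifs were a STAT form with a wider gap, the cAMP element (TGACGTCA), the E-box (CACGTG), an interferon element, the hypoxia element (ACGTGC), the CARE site (TGATGCAA) and a sterol element (TCACNCCAC). They stood at 5.36, 1.34, 10.2, 4.56, 9.92, 1.34 and 1.07% in the 373 windows and at 4.73, 2.76, 8.48, 2.87, 6.62, 0.533 and 0.96% in all windows. A match says only that these letters occur in the window.

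Genes were next grouped by function in 16 lists. Across all tested genes the median log2 change was 0.00 in both genotypes and the median size of the interaction, without its sign, was 0.25. Of 30 IL-33 receptor and proximal signalling genes tested, 9 had a called negative and 1 a called positive interaction (33.3%, against 22.7% of all tested genes), with a median of -0.13. Irak3, the inhibitory kinase of the family, stood at 39.5, 40.1 and 39.6 CPM in unstimulated WT cells, 65.2, 75.6 and 74.3 with IL-33, 40.05, 35.8 and 40.5 in unstimulated ST2KO-labelled cells and 36.0, 39.1 and 36.5 with IL-33. Its WT libraries with IL-33 lay above the other 9, and the interaction was -0.91 ± 0.10 (adjusted p = 7.34e-07). Trib1, a pseudokinase adaptor, had means of 7.91 ± 0.666 CPM without and 20.6 ± 2.87 with IL-33 in WT cells, against 7.58 ± 0.717 and 8.62 ± 1.88 in ST2KO-labelled cells (interaction -1.19 ± 0.20), and the adaptor Myd88 had an interaction of -0.38 ± 0.07. Traf3ip2, an adaptor of IL-17 receptor signalling, had an interaction of -0.74 ± 0.18 and Fos, a subunit of AP-1, one of -0.84 ± 0.25. The Fos call was lost (adjusted p up to 0.0595) when replicate 1 or 3 of ST2KO-labelled cells with IL-33, or replicate 1 of unstimulated WT cells, was left out. Irak2, a kinase of the receptor complex, ran the other way, with an interaction of 0.52 ± 0.08: it fell in WT cells from 54.2 to 37.0 CPM. Irak1, Irak4, Traf6, Map3k7, Tab2, Ikbkb and Mapk14, the core of the pathway, were not called, with interactions between -0.16 and 0.15.

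Of 30 NF-kB subunits and feedback inhibitors tested, 19 had a called negative and 3 a called positive interaction (73.3%), with a median of -0.58. Among the cytokine-signalling inhibitors, Socs2 had means of 0.445 ± 0.174 CPM without and 13.98 ± 2.72 with IL-33 in WT cells, against 0.593 ± 0.113 and 0.798 ± 0.317 in ST2KO-labelled cells. Socs1 stood at 1.61, 1.43 and 1.20 CPM in unstimulated WT cells, 10.1, 9.61 and 10.3 with IL-33, 1.64, 0.866 and 1.04 in unstimulated ST2KO-labelled cells and 1.12, 0.994 and 1.06 with IL-33. Socs1 was high in the 3 WT libraries with IL-33 and the ST2KO-labelled groups overlapped (interaction -2.98 ± 0.35, adjusted p = 1.12e-06). Il1rn, the IL-1 receptor antagonist, had means of 29.2 ± 4.93 CPM without and 110.5 ± 7.59 with IL-33 in WT cells, against 37.2 ± 2.64 and 31.04 ± 6.87 in ST2KO-labelled cells (interaction -2.18 ± 0.25). Tnfaip3, Birc3, Traf1, Tnip3 and Zc3h12a, which restrain or accompany NF-kB signalling, had interactions of -1.17, -1.10, -1.04, -1.04 and -0.91. Cd83, Dusp2 and Tnip1 ran against the list, and each fell in WT cells. Cd83, a surface protein of activated antigen-presenting cells, stood at 112, 116 and 115 CPM in unstimulated WT cells, 59.7, 55.8 and 48.0 with IL-33, 121, 124 and 129 in unstimulated ST2KO-labelled cells and 131, 113 and 124 with IL-33 (interaction 1.05 ± 0.09, adjusted p = 1.92e-08). The Dusp2 call (0.99 ± 0.32, adjusted p = 0.0262) was lost in 6 of 12 fits that each left out 1 library.

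Inflammatory cytokines and mediators had 9 of 21 tested members with a called negative interaction and 0 with a positive one, with a median of -1.45. Il1a held 0, 4 and 1 counts in unstimulated WT cells, 309, 240 and 258 with IL-33, 5, 0 and 9 in unstimulated ST2KO-labelled cells and 1, 37 and 1 with IL-33. It was called (adjusted p = 0.00823, but 0.114 without replicate 3 of unstimulated ST2KO-labelled cells), and 37 of its 39 counts in ST2KO-labelled cells with IL-33 came from replicate 2, without which the interaction was -9.21 in place of -5.74. Ptgs2, the inducible cyclooxygenase, had means of 0.615 ± 0.324 CPM without and 7.58 ± 0.521 with IL-33 in WT cells, against 0.574 ± 0.388 and 0.815 ± 0.212 in ST2KO-labelled cells. Ptges, which completes the synthesis of prostaglandin E2, had an interaction of -2.30 ± 0.57. Tnf stood at 7.95, 8.41 and 8.24 CPM in unstimulated WT cells, 25.8, 20 and 20.4 with IL-33, 11.6, 12.7 and 11.4 in unstimulated ST2KO-labelled cells and 10.6, 13.4 and 8.83 with IL-33, with the WT libraries with IL-33 above the other 9 (interaction -1.55 ± 0.26). Osm and Csf1 had interactions of -1.10 ± 0.23 and -1.02 ± 0.24. Il10, Il18, Il27, Il12b and Vegfa were not called, with interactions of -0.47, -0.54, 0.16, 0.02 and -0.16.

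Chemokines had 16 of 21 tested members with a called negative interaction and 0 with a positive one, with a median of -2.30. Besides Ccl7, Ccl8 and Ccl12, Ccl2 stood at 10.2, 23.7 and 12.2 CPM in unstimulated WT cells, 199, 170.4 and 152 with IL-33, 31.4, 49.8 and 35.5 in unstimulated ST2KO-labelled cells and 30.4, 53.1 and 21.4 with IL-33 (interaction -3.65 ± 0.42, adjusted p = 9.18e-07). All WT libraries with IL-33 were above the rest, and the unstimulated ST2KO-labelled libraries were all above the unstimulated WT ones. Ccl6, a monocyte chemokine already abundant without stimulus, had means of 389 ± 42.6 CPM without and 1922 ± 72.6 with IL-33 in WT cells, against 486 ± 50.8 and 494 ± 104 in ST2KO-labelled cells. The related Ccl9 had an interaction of -1.32 ± 0.10. The neutrophil attractants Cxcl1, Cxcl2 and Cxcl3 had interactions of -2.61 ± 0.58, -3.47 ± 0.27 and -7.14 ± 1.76. The Cxcl3 value rests on 2 counts in unstimulated WT cells, was -10.59 without replicate 2 of ST2KO-labelled cells with IL-33, and lost its call without replicate 1 of unstimulated ST2KO-labelled cells (adjusted p = 0.0875). Ccl17, a chemokine for type 2 helper cells, held 105, 61 and 82 counts in WT cells with IL-33 and 2 in the other 9 libraries together. Its call (adjusted p = 0.0416) was lost in 7 of 12 fits that left out 1 library. Ccl22 had means of 3.34 ± 0.286 CPM without and 13.2 ± 2.89 with IL-33 in WT cells, against 6.54 ± 1.17 and 5.15 ± 1.73 in ST2KO-labelled cells, and Cxcl9, Cxcl10, Cxcl14, Ccl3 and Ccl5 were not called.

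Alternative activation genes had 18 of 24 tested members with a called negative interaction and 1 with a positive one, with a median of -1.60. After Arg1 and Mgl2, the mannose receptor Mrc1 stood at 458, 406 and 448 CPM in unstimulated WT cells, 1220, 1689 and 1709 with IL-33, 502, 446 and 523 in unstimulated ST2KO-labelled cells and 488, 575 and 666 with IL-33. Its WT libraries with IL-33 were above the other 9, and the interaction was -1.58 ± 0.16 (adjusted p = 2.40e-07). Il4ra, the shared receptor chain for IL-4 and IL-13, stood at 81.7, 79.6 and 78.3 CPM in unstimulated WT cells, 289, 371 and 419.7 with IL-33, 73.8, 73.4 and 80.6 in unstimulated ST2KO-labelled cells and 78.0, 103 and 83.1 with IL-33 (interaction -1.96 ± 0.15, adjusted p = 3.48e-09). Ear2, an eosinophil-type ribonuclease, and Pdcd1lg2, the ligand PD-L2, had interactions of -4.58 ± 0.61 and -3.96 ± 0.72. The transcription factors Klf4, Egr2, Irf4 and Myc had interactions of -1.31, -0.96, -0.65 and -0.90. Chil3, the chitinase-like protein Ym1, had means of 8.40 ± 0.947 CPM without and 14.3 ± 0.773 with IL-33 in WT cells, against 8.21 ± 0.856 and 6.51 ± 1.27 in ST2KO-labelled cells (interaction -1.09 ± 0.17). Retnla, another marker of this state, held 36, 18 and 3 counts in WT cells with IL-33 and was not called (adjusted p = 0.0582). Cd163, the haemoglobin scavenger receptor, ran against the list, and its WT mean fell from 66.7 to 36.1 CPM (interaction 0.95 ± 0.12).

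Among type 2 cytokines, Il13, a main effector of type 2 immunity, held 0, 0 and 0 counts in unstimulated WT cells, 107, 113 and 109 with IL-33, 1, 0 and 0 in unstimulated ST2KO-labelled cells and 0, 0 and 0 with IL-33. That is at least 36.9-fold higher with IL-33 in WT cells, against a floor of 3 counts per library, and the interaction was called (adjusted p = 0.0128). Without replicate 1 of the unstimulated ST2KO-labelled cells, which holds the only count of that genotype, the fit gave no call (adjusted p = 1.0). Il4 held 110, 108 and 98 counts in unstimulated WT cells, 102, 134 and 78 with IL-33, 111, 114 and 79 in unstimulated ST2KO-labelled cells and 78, 98 and 96 with IL-33, and the groups overlapped. Among the receptors and their kinases and STAT factors, Il13ra1, Csf2rb and Jak3 had interactions of -1.16 ± 0.13, -1.58 ± 0.14 and -0.94 ± 0.21. Over the list, 8 of 18 tested members had a called negative and 2, Il3ra and Stat6, a called positive interaction. The Stat6 value was 0.22 ± 0.07, and its call was lost without replicate 2 of WT cells with IL-33 (adjusted p = 0.0509).

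Matrix, protease and acute phase genes had 20 of 24 tested members with a called negative interaction and 0 with a positive one, and a median of -2.78, the most negative of the 16 lists. Secreted metalloproteinases were prominent: Mmp8, Mmp9, Mmp13 and Mmp12 had interactions of -4.06 ± 0.21, -3.43 ± 0.46, -3.62 ± 0.23 and -2.43 ± 0.28. Mmp12, the macrophage elastase, stood at 228, 455 and 309 CPM in unstimulated WT cells, 1520, 1478 and 1933 with IL-33, 540.5, 657 and 499 in unstimulated ST2KO-labelled cells and 515, 648 and 399 with IL-33. Its WT libraries with IL-33 were high and the unstimulated ST2KO-labelled ones lay above the unstimulated WT ones. Cp, the copper-carrying ferroxidase ceruloplasmin, had means of 2.71 ± 0.670 CPM without and 40.2 ± 7.49 with IL-33 in WT cells, against 2.45 ± 0.697 and 1.72 ± 0.602 in ST2KO-labelled cells. The clotting factor F10 had an interaction of -2.82 ± 0.26. Vcan, the proteoglycan versican, stood at 3.80, 3.66 and 4.88 CPM in unstimulated WT cells, 55.2, 74.6 and 93.9 with IL-33, 4.21, 4.06 and 4.16 in unstimulated ST2KO-labelled cells and 4.42, 6.63 and 4.39 with IL-33 (interaction -3.86 ± 0.25). Timp2, Plau and Timp3 were among the members not called.

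Several of these genes are also markers of monocytes, neutrophils or megakaryocytes. Of 9 monocyte markers, 8 had a called negative interaction, led by Hp, Vcan, Fn1 and F13a1, and their summed level was 281.5 to 335 CPM in unstimulated WT cells, 785.9 to 1266 with IL-33, 332.6 to 341.5 in unstimulated ST2KO-labelled cells and 312.5 to 422.8 with IL-33. The 12 neutrophil markers summed to 122.4 to 135.2, 379.6 to 525.5, 135.8 to 158 and 143.3 to 152.5 CPM in the same order, mostly through Mmp8 and Csf3r, and Ly6g did not pass the filter. The 8 erythroid and megakaryocyte markers summed to 14.23 to 22.57, 161.3 to 211.8, 22.47 to 29.81 and 21.56 to 33.12 CPM, of which Pf4 gave most, while Hbb-bs and Hbb-bt were at 0 in all 12 libraries. The mast cell markers Mcpt4, Tpsab1 and Tpsb2 were also at 0. The part of such cells in the results was not tested, and in bulk RNA more cells of a type and more RNA per cell cannot be told apart. Dendritic cell markers summed to 52.83 to 100.7, 138.8 to 220.9, 127 to 166.5 and 110.1 to 172.9 CPM. Markers of group 2 innate lymphoid and T cells summed to 376.7 to 390.7 CPM in WT cells with IL-33 and to 501.9 to 602.4 CPM in the other 9 libraries. Members of this list went both ways. Of 9 tested, 3 had a called positive and 2 a called negative interaction, Il2ra (-4.63) and Thy1 (-3.71). Eosinophil markers summed to 9.62 to 14.66 CPM in unstimulated WT cells and 24.58 to 27.87 with IL-33. In ST2KO-labelled cells they summed to 14.23 to 19.8 CPM without and 12.27 to 16.99 with IL-33. B cell and stromal sums were at most 5.94 and 3.44 CPM in any library, and those of mast cells and basophils at most 12.5 CPM. Kit gave 10.4 CPM of that highest sum, in replicate 1 of unstimulated WT cells. Of 7 mast cell and basophil markers tested, 1 had a called positive interaction (Kit, 2.42) and 1 a called negative one (Mcpt8, -5.31).

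Scavenger and homeostatic receptors split evenly, with 5 of 19 tested members called with a positive and 5 with a negative interaction. Msr1, the scavenger receptor SR-A, stood at 79.3, 90.7 and 70.5 CPM in unstimulated WT cells, 341, 330.1 and 331 with IL-33, 104, 108 and 91.8 in unstimulated ST2KO-labelled cells and 98.9, 134 and 90.3 with IL-33. The WT libraries with IL-33 were above the other 9, and the interaction was -1.98 ± 0.15 (adjusted p = 2.26e-09). Marco, a scavenger receptor for bacteria, held 0, 0 and 0 counts in unstimulated WT cells and 263, 608 and 618 with IL-33, at least 166.9-fold higher, against 3, 0 and 0 and 0, 13 and 4 in the ST2KO-labelled groups. Its call (adjusted p = 0.0339) was lost in 4 of 12 fits without 1 library, and its interaction of -9.58 was -10.97 without replicate 2 of ST2KO-labelled cells with IL-33. The called positive members were Axl, Adgre4, Gpr34, Cx3cr1 and Gas6, the ligand of Axl. Axl, a receptor for apoptotic cells, stood at 164, 126 and 132 CPM in unstimulated WT cells, 64.7, 44.8 and 42.5 with IL-33, 121, 88.0 and 121 in unstimulated ST2KO-labelled cells and 125, 83.7 and 111 with IL-33 (interaction 1.43 ± 0.23), with WT libraries with IL-33 below the rest. Adgre4, Gpr34 and Cx3cr1 had interactions of 1.34 ± 0.31, 1.25 ± 0.35 and 0.71 ± 0.16. Stab1, a receptor for altered lipoproteins and matrix, had means of 1153 ± 178 CPM without and 1280 ± 176 with IL-33 in WT cells, against 1165 ± 175 and 1286 ± 310.2 in ST2KO-labelled cells, log2 changes of 0.15 and 0.14 that neither genotype's test called. MHC class II genes had 7 of 10 tested members with a called negative interaction: Cd74, the invariant chain, had means of 858 ± 118 CPM without and 1634 ± 244 with IL-33 in WT cells, against 1064 ± 103 and 1020 ± 114 in ST2KO-labelled cells (-0.99 ± 0.15), and H2-DMb2, H2-DMa and H2-Eb1 had interactions of -1.87, -0.76 and -0.75.

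Glycolysis was the list with the largest share of members called. Of 18 tested, 16 had a negative interaction and 0 a positive one, with a median log2 change of 0.95 in WT cells, -0.01 in ST2KO-labelled cells and -0.92 in the interaction. Slc2a1, the main glucose transporter, stood at 50.2, 70.2 and 51.7 CPM in unstimulated WT cells, 148, 147 and 159 with IL-33, 68.2, 91.6 and 64.1 in unstimulated ST2KO-labelled cells and 56.8, 100.3 and 59.8 with IL-33 (interaction -1.45 ± 0.24, adjusted p = 1.06e-04). Ldha, which makes lactate, stood at 781, 893 and 808 CPM in unstimulated WT cells, 1750, 1684 and 1699 with IL-33, 871, 990 and 781 in unstimulated ST2KO-labelled cells and 789.5, 1044 and 728 with IL-33 (interaction -1.09 ± 0.13, adjusted p = 2.55e-06). For both genes the WT libraries with IL-33 were above the other 9, and the highest ST2KO-labelled library was a replicate 2. Slc16a3, the lactate exporter, and Pfkfb3, which sets the rate of glycolysis through fructose 2,6-bisphosphate, had interactions of -1.40 ± 0.22 and -1.27 ± 0.09. Pfkm, the muscle form of phosphofructokinase, was not called. Gapdh, which has many near-identical pseudogene copies, was counted at only 3.40 to 22.0 CPM in WT cells, and its value is uncertain.

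The mitochondrial lists had smaller medians. In the TCA cycle, 8 of 21 tested members had a called negative interaction (38.1%, against 22.7% of all tested genes), with a median of -0.14. The median size without its sign, 0.14, was below the 0.25 of all tested genes. Fumarase, Fh1, stood at 62.4, 63.9 and 71.0 CPM in unstimulated WT cells, 105, 115 and 112 with IL-33, 65.1, 66.8 and 62.9 in unstimulated ST2KO-labelled cells and 63.1, 67.3 and 60.7 with IL-33 (interaction -0.78 ± 0.08), with WT libraries with IL-33 above the other 9, and Idh1 and Sdhd had interactions of -0.59 ± 0.09 and -0.39 ± 0.07. Of 19 tested genes for uncoupling, carriers and biogenesis, 7 were called negative and 2 positive. Ppargc1b, a coactivator of mitochondrial biogenesis, and Slc25a5, an ADP/ATP carrier, had interactions of -1.64 ± 0.26 and -0.78 ± 0.08. Bnip3, a mitophagy receptor whose counts are uncertain because its exons overlap another gene's, had one of -1.57 ± 0.23. Pink1, the mitophagy kinase, ran against the list (0.71 ± 0.08). Ucp2, the uncoupling protein, stood at 960.5 ± 12.9 and 900 ± 12.8 CPM in WT cells and 1019 ± 44.4 and 1029 ± 16.5 in ST2KO-labelled cells, without and with IL-33 (interaction 0.11 ± 0.06, adjusted p = 0.192).

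Cholesterol synthesis had 18 of 22 tested members with a called negative interaction and 0 with a positive one. The median log2 change was 0.67 in WT cells and 0.10 in ST2KO-labelled cells, where 4 of the 22 had an unadjusted p under 0.05 and 0 were called. Mvd, Idi1 and Pmvk of the mevalonate pathway had interactions of -0.82 ± 0.08, -0.79 ± 0.13 and -0.78 ± 0.11, and Sqle, which makes the first sterol precursor with oxygen, had means of 49.5 ± 4.92 CPM without and 92.9 ± 3.13 with IL-33 in WT cells, against 55.8 ± 4.41 and 63.0 ± 6.39 in ST2KO-labelled cells. Of 17 tested itaconate and Nrf2 target genes, 9 were called negative and 2 positive. Besides Irg1 and Slc13a3, the cystine importer Slc7a11 and the glutathione synthesis gene Gclm had interactions of -1.56 ± 0.28 and -1.21 ± 0.11. Ftl1 and Fth1, the ferritin chains, ran against the list (0.23 and 0.15). The Fth1 call was lost without replicate 1 of ST2KO-labelled cells with IL-33 (adjusted p = 0.0647), and exons of Ftl1 overlap those of another gene.

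Of 25 tested interferon-stimulated genes, 1 was called negative (Irf1, -0.54 ± 0.08) and 1 positive (Ifit3b, 1.76 ± 0.55, lost in 5 of 12 fits without 1 library). Of 27 tested cell cycle genes, 1 was called negative (Bub1, -0.52 ± 0.17) and 1 positive (Ccnd1, 0.86 ± 0.24, whose exons overlap another gene's). These shares, 8 and 7.41%, lie below the 22.7% of all tested genes, while those of glycolysis (88.9%), matrix and acute phase (83.3%), cholesterol synthesis (81.8%), alternative activation (79.2%) and chemokines (76.2%) lie above it. So do NF-kB (73.3%), MHC class II (70%), itaconate and Nrf2 targets (64.7%), type 2 cytokines (55.6%) and homeostatic receptors (52.6%). The rest are uncoupling and carriers (47.4%), inflammatory cytokines (42.9%), the TCA cycle (38.1%) and proximal signalling (33.3%), also above it. Lists and members were chosen with earlier results of these data known. Shares above 22.7% are therefore not separate evidence about these functions. No called list member changed sign with other size factors (relative log expression or upper quartile) or without replicate 2 of ST2KO-labelled cells with IL-33. Numbers of calls did change. With upper-quartile factors, negative calls fell to 6 for proximal signalling, 6 for the TCA cycle and 6 for uncoupling and carriers. They fell to 15 for cholesterol synthesis and 15 for glycolysis. Without replicate 2, negative calls fell to 15 for chemokines and 17 for alternative activation. They rose to 11 for inflammatory cytokines, 10 for itaconate and Nrf2 targets and 4 for the cell cycle.

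**Figure D2:**
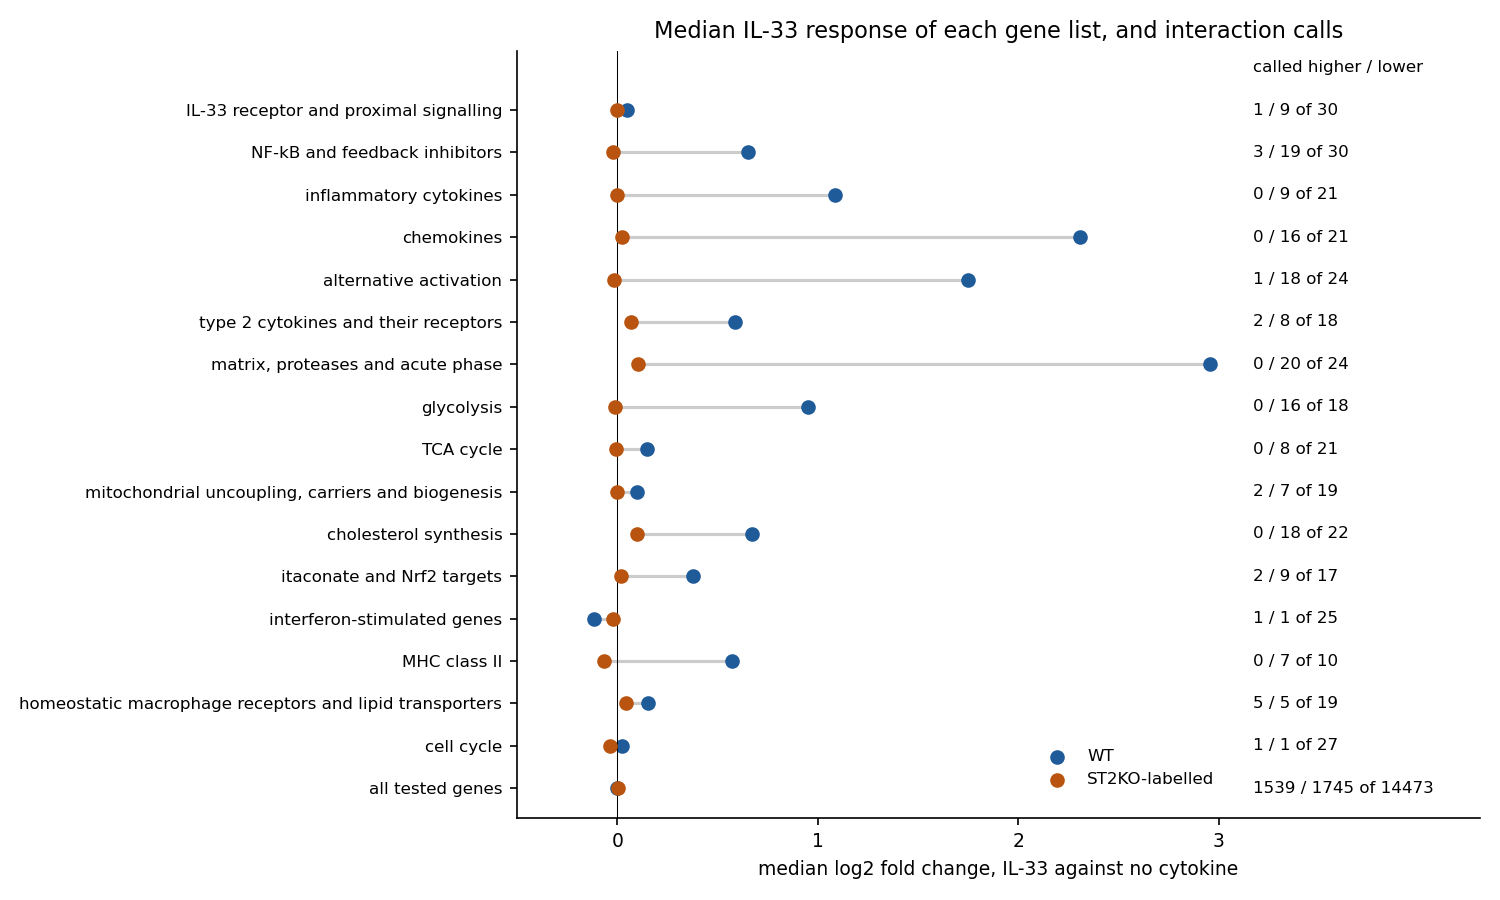
Median log2 change with IL-33 in WT (blue) and ST2KO-labelled (orange) cells for 16 gene lists and all tested genes, with the numbers of members called with a positive and a negative interaction at the right. The WT medians reach 2.96 for matrix, protease and acute phase genes, and the ST2KO-labelled medians lie between -0.06 and 0.10.

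The genes with the most positive interactions fell with IL-33 in WT cells, and their changes in ST2KO-labelled cells were not called. Dkk2 (chromosome 3, 132085292 to 132180304), a secreted modulator of Wnt signalling, stood at 15.4, 15.7 and 15.7 CPM in unstimulated WT cells, 0.793, 1.45 and 0.675 with IL-33, 16.1, 14.8 and 16.1 in unstimulated ST2KO-labelled cells and 16.7, 13.3 and 17.4 with IL-33. The 3 WT libraries with IL-33 were lowest and the other 9 overlapped, with an interaction of 4.0 ± 0.23 (adjusted p = 5.93e-11). Tox2, a nuclear HMG-box protein, and Cmah, which makes N-glycolylneuraminic acid, had interactions of 3.58 ± 0.25 and 3.55 ± 0.26. Cmah had means of 13.2 ± 1.06 CPM without and 1.09 ± 0.0997 with IL-33 in WT cells, against 11.8 ± 0.827 and 11.5 ± 1.11 in ST2KO-labelled cells. Hpgd, which inactivates prostaglandins, stood at 269.7, 245 and 290.5 CPM in unstimulated WT cells, 59.8, 40.5 and 36.2 with IL-33, 276, 198 and 252 in unstimulated ST2KO-labelled cells and 278, 164 and 283 with IL-33 (interaction 2.56 ± 0.27, adjusted p = 3.86e-07). Its lowest ST2KO-labelled value, in replicate 2 with IL-33, was still above all 3 WT libraries with IL-33.

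Other genes of this kind included Angptl4, an inhibitor of lipoprotein lipase (2.97 ± 0.25), and the myeloid receptor Cd300e (2.89 ± 0.29). Lpar2, a receptor for lysophosphatidic acid, Gprc5b, an orphan receptor, Dio2, which activates thyroid hormone, and Samd4, an RNA-binding protein, had interactions between 2.30 and 2.59. Sox4 and Cdkn1c, at 2.50 and 2.47, have exons that overlap other genes' and are uncertain. For Ndrg2 the unstimulated genotypes already differed. It had means of 22.4 ± 5.06 CPM without and 3.73 ± 0.660 with IL-33 in WT cells, against 8.15 ± 2.77 and 9.20 ± 3.21 in ST2KO-labelled cells, with an adjusted p of 0.0167 for unstimulated ST2KO-labelled against WT cells, while Kit, the stem cell factor receptor, had means of 8.57 ± 2.06 CPM without and 1.83 ± 0.982 with IL-33 in WT cells, against 4.75 ± 1.14 and 5.40 ± 1.98 in ST2KO-labelled cells (adjusted p = 0.149).

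A ratio of ratios can hide a difference in level, and Il1r1, the IL-1 receptor gene in the same gene cluster as Il1rl1, was chosen after its values were seen because it shows this. It stood at 1.12, 0.701 and 0.225 CPM in unstimulated WT cells, 2.67, 3.66 and 3.94 with IL-33, 30.7, 31.6 and 29.5 in unstimulated ST2KO-labelled cells and 37.2, 27.1 and 35.7 with IL-33. Both ST2KO-labelled groups were above every WT library, by 5.50 on the log2 scale without cytokine (adjusted p = 1.11e-10). The interaction of -2.22 ± 0.39 (adjusted p = 1.82e-04) is therefore negative although the level was higher in every ST2KO-labelled library.

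The 2 responses were then set side by side, which is possible because they share no library. Among 606 genes that rose at least 2-fold in WT cells (4.19% of genes tested), the median log2 change was 1.89 in WT cells and 0.04 in ST2KO-labelled cells, where the 5th to 95th percentiles were -0.83 and 1.20. For 454 of the 606, the 95% interval of the ST2KO-labelled change lay wholly below 50% of the WT change on the log2 scale. They include genes with 0 counts in every ST2KO-labelled library, such as Csf3 and Il9, whose fitted interval had no width. Such genes meet the condition without any bound on their response. Among 367 genes that fell at least 2-fold (2.54%), the medians were -1.54 and -0.02, and 259 met the same condition. Both sets were picked by their WT change, so the WT medians and the 50% mark tend to be raised by the selection. The ST2KO-labelled changes were not used to pick them. Restricted to genes with a mean log2 CPM of at least 2 over the 21 libraries, the numbers were 279 of 294 rises and 121 of 126 falls. Some genes near 0 in most of the 12 libraries reach that mean. Serpinb2 (2.62), for example, was high in WT cells with IL-33 alone among the 12. Across the 10120 genes with a mean log2 CPM of at least 2, here called better expressed, the least-squares slope of the ST2KO-labelled change on the WT change was 0.0404. Pearson r was 0.20, across genes, which are not independent replicates. Without replicate 2 of ST2KO-labelled cells with IL-33 the slope was -0.0284.

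**Figure D3:**
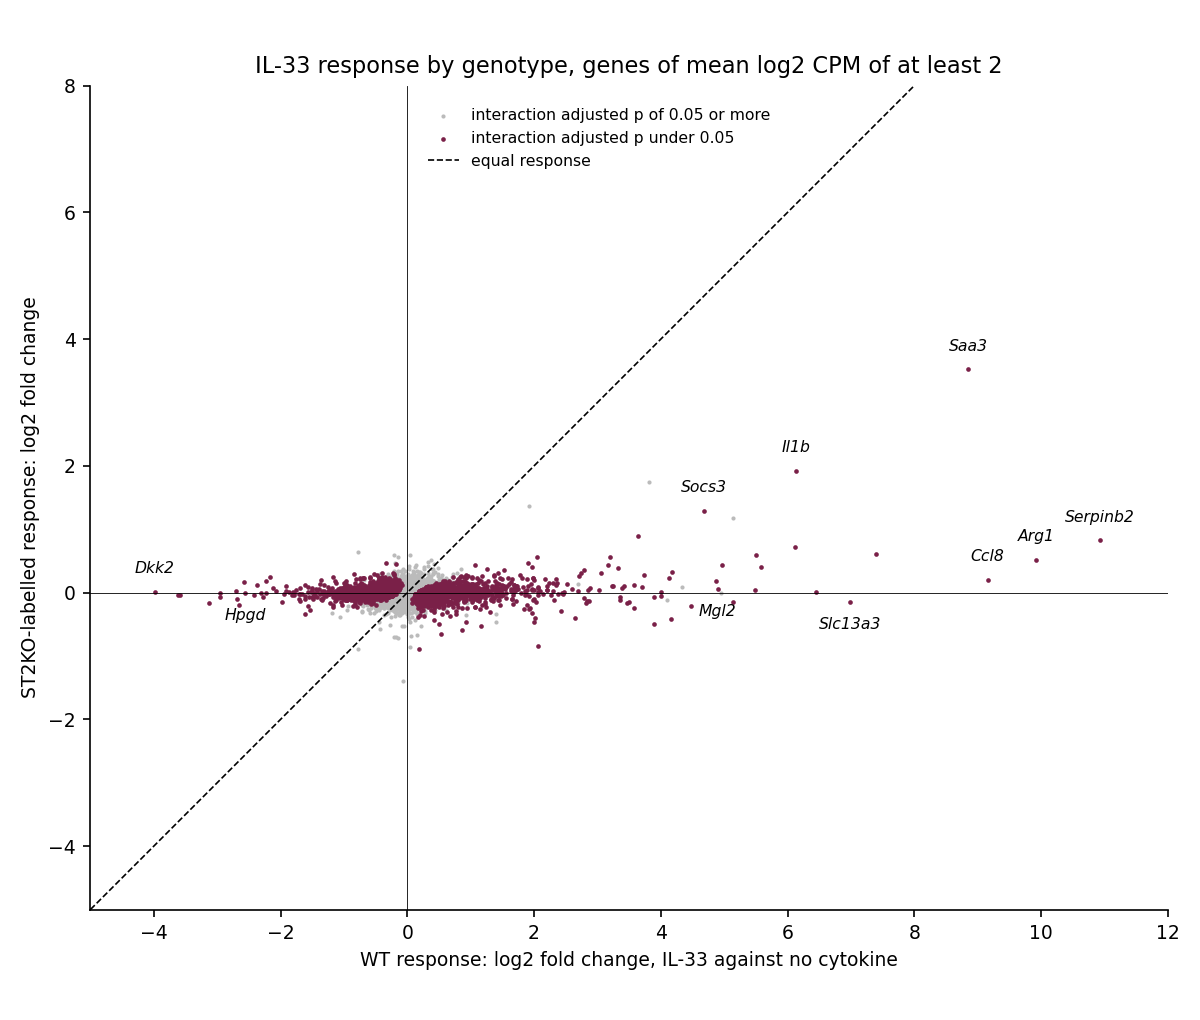
Log2 change with IL-33 in ST2KO-labelled cells (y axis) against WT cells (x axis) for 10120 genes with a mean log2 CPM of at least 2; dark points have a called interaction and the dashed line marks equal responses. The points lie along the x axis, and Saa3, Il1b and Socs3 are the called genes farthest above it.

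With 0 called genes, the lowest p-values of the ST2KO-labelled response were looked at after the values were seen. Gm11249, a processed pseudogene whose reads may be shared with its parent gene, had a log2 change of 0.78 in WT and 0.77 in ST2KO-labelled cells, and its interaction was -0.01 ± 0.22. The values were 3.20, 3.89 and 4.13 CPM in unstimulated WT cells, 7.14, 6.19 and 6.02 with IL-33, 1.48, 1.90 and 1.62 in unstimulated ST2KO-labelled cells and 2.71, 2.84 and 3.01 with IL-33, so in each genotype the libraries with IL-33 were above those without. Its ST2KO-labelled change was not called (adjusted p = 0.671). Rsph3a, Prg2, Pigf, Rps29 and Zfp235 came next, with ST2KO-labelled changes of -0.71, -1.26, -0.70, -0.36 and 0.46. Exons of Pigf overlap those of another gene, and its value is uncertain. Among genes with a mean log2 CPM of at least 2, 7 had an ST2KO-labelled change of at least 2-fold. These were Saa3, Il1b, Socs3, Cdh1, Rnase2a, Xist and the pseudogene Rpl30-ps10, of which Xist, Rnase2a and Cdh1 had at most 32 counts over the 3 libraries of either ST2KO-labelled group and reached that mean through other libraries.

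Replicate 2 of the ST2KO-labelled cells with IL-33 was the high library for the first 3 of these. Over 91 genes with a mean log2 CPM of at least 2 that rose at least 4-fold in WT cells, the median log2 distance from the unstimulated ST2KO-labelled mean was -0.03 in replicate 1, 0.33 in replicate 2 and -0.10 in replicate 3. The number at least 2-fold above that mean was 0, 8 and 0. These distances were taken with 0.5 CPM added to every value, so genes near 0 can miss the mark. Cdh1 in replicate 3, for example, stood at 0.461 CPM against an unstimulated ST2KO-labelled mean of 0.0784, and was not counted. Over 20 genes that fell at least 4-fold in WT cells, the medians were 0.12, -0.31 and 0.16. Replicate 2 of the unstimulated groups was also the lowest of its group for these 20 genes, at -0.13 in WT and -0.16 in ST2KO-labelled cells. The labels name no batch, and the part of the replicate number in this was not tested.

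**Figure D4:**
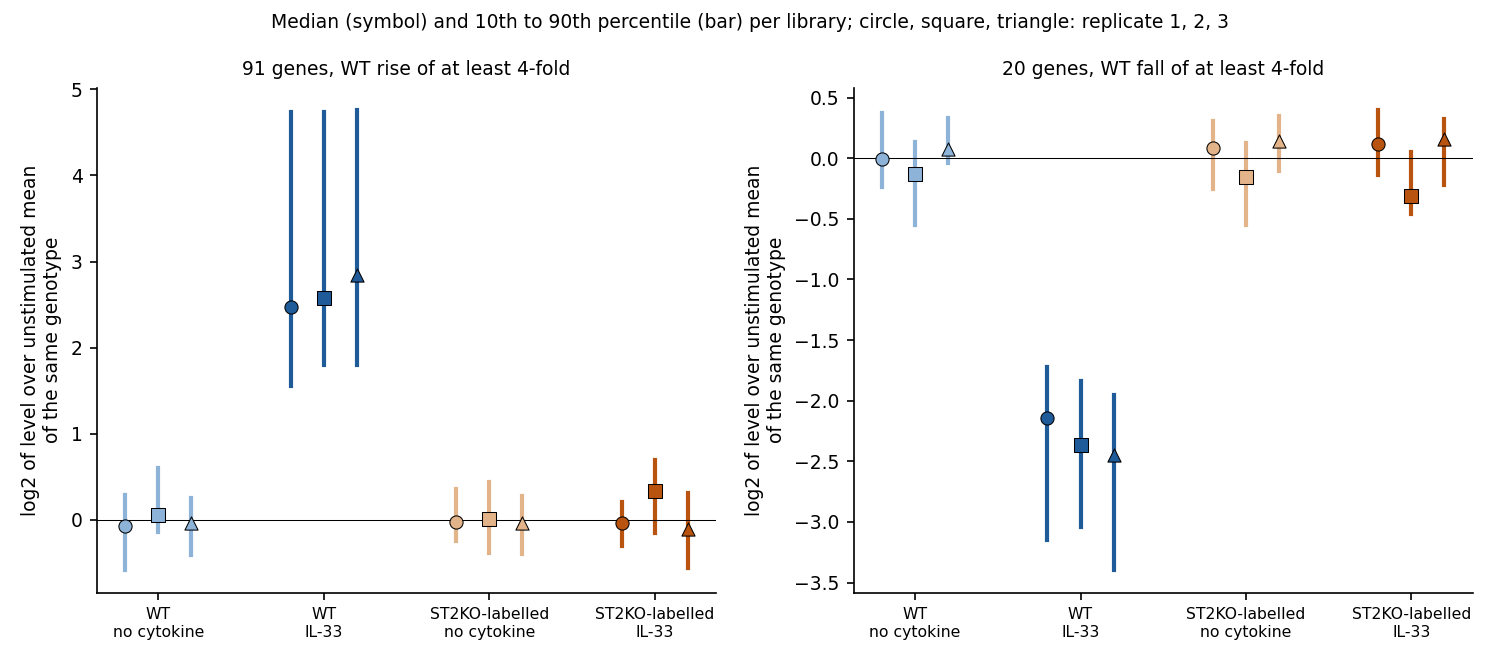
Median (symbol) and 10th to 90th percentile (bar) of the log2 ratio of each library to the unstimulated mean of its own genotype, for 91 genes that rose (left) and 20 that fell (right) at least 4-fold in WT cells. Ratios were taken with 0.5 CPM added to every value. The WT libraries with IL-33 have medians of 2.47 to 2.84 at left, and replicate 2 of the ST2KO-labelled cells with IL-33 is at 0.33 at left and -0.31 at right.

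With 0.5 CPM added to every value, that library was at least 2-fold above all other ST2KO-labelled libraries in 5 of the 91 genes. By this rule 0 genes stood out in any of the other 5 libraries. The added 0.5 CPM keeps some low-level genes from meeting it. Examples are Mmp14 in replicate 2 (2.13 CPM, next highest 0.880) and Cdh1 in replicate 3 (0.461 CPM, next highest 0.208). Saa3, an acute phase protein of macrophages, stood at 0.465, 0.830 and 0.426 CPM in unstimulated WT cells, 126, 257 and 414 with IL-33, 0.625, 0.474 and 0.448 in unstimulated ST2KO-labelled cells and 0.713, 16.2 and 0.461 with IL-33. Replicate 2 held 701 counts, and its gain was 5.91% of the mean WT gain. The Saa3 interaction was -5.33 ± 1.92 (adjusted p = 0.0494) with that library and -8.65 (adjusted p = 1.16e-05) without it. Leaving out any 1 of the 6 unstimulated libraries, or replicate 2 or 3 of WT cells with IL-33, ended the call (adjusted p 0.0585 to 0.148). Socs3, an inhibitor of STAT3 signalling, stood at 4.15, 3.42 and 3.33 CPM in unstimulated WT cells, 67.5, 97.7 and 114 with IL-33, 3.36, 3.20 and 3.63 in unstimulated ST2KO-labelled cells and 3.64, 16.9 and 4.09 with IL-33, and Il1b, which encodes IL-1β, at 0.875, 1.17 and 0.952 CPM in unstimulated WT cells, 69.5, 65.8 and 75.6 with IL-33, 0.926, 0.557 and 0.448 in unstimulated ST2KO-labelled cells and 1.21, 5.57 and 0.379 with IL-33. In both, replicate 2 was the only high ST2KO-labelled library, at 15.1 and 7.11% of the WT gain. Their interactions were -3.39 ± 0.53 and -4.21 ± 0.85, and -4.50 and -5.79 without it.

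Nxpe5, a gene of poorly known function, and Hp, the haemoglobin carrier haptoglobin, completed the 5, with gains of 16.5 and 10.6% in replicate 2 and interactions of -2.74 ± 0.35 and -4.91 ± 0.64, or -3.35 and -6.04 without it. Among the 15 genes with the most negative interactions the gain in replicate 2 ran from -0.368% (Slc13a3) and -0.0876% (Serpinb2) through 0.173% (Arg1), 0.283% (Ccl8) and 0.873% (Mgl2) to 2.48% (Mmp14) and 2.89% (Cish), below the 5.91 and 10.6% of Saa3 and Hp. Over the 91 genes the median gain was -0.47, 3.84 and -0.54% in replicates 1, 2 and 3.

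**Figure D5:**
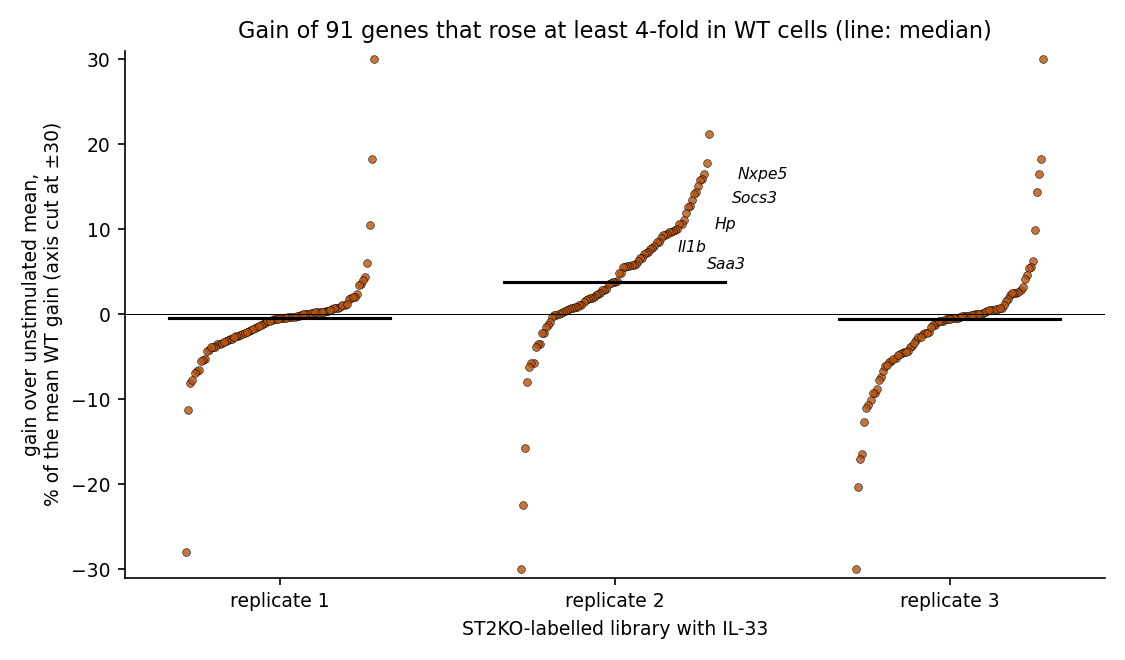
Gain of each of 91 genes over the unstimulated mean in each ST2KO-labelled library with IL-33, as a percentage of the mean gain in WT cells, ordered by value; the line is the median. The y axis is cut at 30% in either direction, beyond which lie Il1r1 in all 3 replicates and Cav1 in replicate 3; the median of replicate 2 is 3.84% and those of replicates 1 and 3 lie just below 0.

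Several genes with large WT rises and 0 or few counts in ST2KO-labelled cells had an interaction that was not called. Csf3 (G-CSF), Csf2 (GM-CSF) and Il9 held 97, 30 and 43 counts over the 3 WT libraries with IL-33 and 0 in the other 9. Nrg1, a ligand of ERBB receptors, held 702 counts in WT cells with IL-33 (at least 78.7-fold higher), 0 in both unstimulated groups and 3 in ST2KO-labelled cells with IL-33. Dnmt3l, Cd209f, Enpp2 and Rtn4rl2 held 92, 78, 44 and 40 counts in WT cells with IL-33 and at most 2 in either ST2KO-labelled group with or without the cytokine. Entpd3 and Serinc2 held 11 and 18 counts over the 3 libraries of ST2KO-labelled cells with IL-33, against 1 each without it. The Serinc2 ratio there was 19.4 (95% interval for counting error 3.07 to 809), and 215.9 (59.4 to 1788) in WT cells.

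In the other direction, some genes had a called interaction without a called WT change. Romo1, a mitochondrial membrane protein, stood at 20.3, 20.3 and 20.5 CPM in unstimulated WT cells, 21.7, 23.8 and 24.5 with IL-33, 28.6, 30.2 and 25.5 in unstimulated ST2KO-labelled cells and 24.0, 23.6 and 18.4 with IL-33 (interaction -0.55 ± 0.13, adjusted p = 0.00370). The ST2KO-labelled values without cytokine were the highest, and with IL-33 the genotypes overlapped. Prg2, the eosinophil major basic protein, held fewer than 100 counts in every library and had an interaction of -1.70 ± 0.42. Zfp235, Zfp866 and Nom1 had interactions of 0.63, 0.39 and 0.36. The ST2KO-labelled change of each was not called either. WT and ST2KO-labelled libraries with IL-33 did not overlap in 6502 of the 14473 genes (44.9%), which includes differences present before stimulation.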

How the data were processed

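RNA-seq of mouse bone marrow-derived macrophages was deposited by the authors as whole-number read counts per gene, in 1 column per library. The GRCm38 (mm10) build and the tools listed in the submitters' processing notes (HTSeq 0.6.1, HISAT2 2.0.5, DESeq2 1.22.2) are given there with no role or order. The gene annotation and strand setting are not given in the sources used here, so overlapping genes cannot be separated. Positions came from GENCODE M21, which matched 46574 of the 47069 gene IDs, and promoter windows from RefSeq (GRCm38.p6).

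Counts were fitted with edgeR 4.0.16 in R 4.3.3 (quasi-likelihood test, TMM scaling, filterByExpr over 7 groups, 21 libraries in one fit). The interaction was tested for 14473 genes with Benjamini-Hochberg adjustment, and "called" means an adjusted p under 0.05. CPM values use the TMM-scaled library sizes. Applied to the 12 libraries alone, the filter keeps 13991 genes, 264 of them only through WT cells with IL-33, so list counts over tested genes hold some genes that had to be high there. Counting intervals and floors (3 counts per library) cover counting error only. Counts were also simulated with the same library sizes and the fitted spread (14305 genes). Unlike the data, the simulated ST2KO-labelled cells were given the WT response, up to each gene's highest group level. The genes changed by a set fold had counts in both unstimulated groups and a mean above a floor. The interaction test recovered 72.1% of genes changed 1.5-fold, 95.5% of those changed 2-fold and 98.5% of those changed 4-fold. It called 6 of 14058 unchanged genes. The recovered shares do not cover genes with low counts. Deviations of same-numbered libraries correlated at 0.183, 0.386 and 0.351 between the ST2KO-labelled groups. Their numbers were therefore also fitted as a block within genotype, from the data and not from the labels. Between the unstimulated groups of the 2 genotypes the values were 0.230, 0.403 and 0.111, so the agreement was not particular to ST2KO-labelled cells. Replicate agreement was checked, and no libraries were duplicates within sampling noise.

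Genes named are Il1rl1, proximal signalling genes, the 15 largest positive and negative interactions among protein-coding genes with a mean log2 CPM of at least 2, the lowest p-values of the ST2KO-labelled response, large WT changes without a called interaction, called interactions without a called WT change, and, from each list, the leading and the opposing members; other list members are named for their role. Some items that these rules name are not reported here. The members and lists were chosen with earlier results of these data known. Alternatives were 2 other scalings, no expression filter, DESeq2 1.42.0, limma-voom (limma 3.58.1), the 12 libraries alone, replicate blocks, a test against a 1.5-fold change, and leaving out each library in turn.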

Additional observations from a re-analysis of the deposited data

Results flagged for a closer look

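The response to IL-33 differed between the genotypes, by the edgeR interaction test, with a positive sign in 1539 genes and a negative sign in 1745. The most negative log2 interactions were those of Serpinb2 (-10.10), Arg1 (-9.40), Ccl8 (-8.96), Slc13a3 (-7.14), Mmp14 (-6.80), Rasgrp1 (-6.43), Cish (-5.45), Ccl12 (-5.40), Saa3 (-5.33), Ccl7 (-5.30), H2-M2 (-5.18), Hp (-4.91), Mgl2 (-4.84), Spint1 (-4.68) and Irg1 (-4.68). Serpinb2 had 1 count in unstimulated WT cells, so its fitted value depends on the prior count.

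Among the most positive were those of Dkk2 (4.0), Tox2 (3.58), Cmah (3.55), Angptl4 (2.97), Cd300e (2.89), Ndrg2 (2.76), Samd4 (2.59), Hpgd (2.56), Sox4 (2.50), Cdkn1c (2.47), Lpar2 (2.42), Kit (2.42), Dio2 (2.38) and Gprc5b (2.30). Groups of 3 libraries are too small for a test of single outlying libraries.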

How the results depend on the processing

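Across 2 other scalings, no expression filter, DESeq2, limma-voom, the 12 libraries alone and leaving out 1 library, 79.7 to 99.5% of the 3284 interaction calls were found again, all in the same direction. With upper-quartile scaling 55.1% of calls were positive, against 46.9%. A test against a 1.5-fold change called 564 interactions (183 positive and 381 negative) and 874 WT changes (575 upward and 299 downward). The ST2KO-labelled response had 70 calls (30 upward and 40 downward) without an expression filter, where the test used an infinite prior degree of freedom in place of 7.43, and 4 with a replicate block within genotype (1 upward, Rps12-ps3, and 3 downward, among them Rps29 and Cebpb). Leaving out 1 library gave 2733 to 3410 interaction calls (1303 to 1577 positive and 1430 to 1846 negative), 4358 to 5203 WT calls (2224 to 2720 upward and 2105 to 2565 downward) and 0 ST2KO-labelled calls throughout. The slope of the ST2KO-labelled on the WT response ranged from -0.0149 to 0.0578 over all tested genes and from -0.0284 to 0.0656 over better expressed ones. It was negative in both only without replicate 2 of ST2KO-labelled cells with IL-33, and the cause was not tested.

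A replicate block by number gave 3545 interaction calls and the block within genotype 3476. Deviations of same-numbered libraries correlated between -0.0992 and 0.403 over 18 library pairs, 10 of them over 0.1, and 24 of 36 library and group pairs correlated best with their own number. All 3 pairs exceeded 0.1 between the ST2KO-labelled groups, and also between the unstimulated ST2KO-labelled and WT groups (0.230, 0.403 and 0.111). This did not hold over the 4 groups of the interaction, which was therefore not taken as paired. What the shared number stands for was not tested. Of 148 genes examined one by one, 51 lost their call in the test against 1.5-fold and at most 8 in any other setting; 5 of the 148 were not tested in the fits of the 12 libraries alone or with the block within genotype. Genes with 0 counts in whole groups had no usable fitted error.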
